A study of Homo sapiens with 14 samples.

Results

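The comparison described here set the peptide against no peptide within replicate 2 of a chromatin immunoprecipitation and sequencing (ChIP-seq) series. It held 4 of the 14 libraries of the series, all of the ChIP libraries numbered replicate 2, namely 2 with the peptide (1 under DMSO and 1 under Nutlin3a) and 2 without it (1 under DMSO and 1 under Nutlin3a). The libraries were chosen by their titles. Replicate 1 has ChIP libraries without peptide and none with it in the samples analysed here, so it entered only beside the results. All cells were wild-type HCT116, a human colorectal carcinoma line, and all were electroporated. The peptide groups received a bivalent stapled peptide, 10 µM in the electroporation and 200 nM in the medium afterwards. After electroporation the cells spent 3 hours with solvent alone (0.1% DMSO) or with Nutlin3a at 10 µM, a compound that keeps MDM2 from binding p53. Per the series title, the peptide interferes with the binding of p53 to Mediator. Per the protocol, an electroporated pool was split between DMSO and Nutlin3a, so both peptide libraries may come from 1 pool. The peptide and the pool then cannot be told apart, and whether the replicates are separate cultures is not given in the sources used here, so the p-values may measure technical spread only.

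The antibody binds RNA polymerase II phosphorylated at Ser5 of the repeats in its C-terminal tail. That mark is placed by the kinase of TFIIH as the polymerase leaves the promoter, and it is densest at the start of genes, where the polymerase often pauses. Mediator is the large complex that carries signals from activators such as p53 to the polymerase and stimulates that kinase. In colorectal cells, Nutlin3a raises transcription of targets such as CDKN1A, the gene of the cell cycle inhibitor p21.

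Each gene had 1 window of 1000 bp at a transcription start, and the 4 libraries held 1634929 to 2240951 counts in the windows. Values below are in CPM, counts scaled to each library's total in the tested windows with TMM factors, which were 0.992 to 1.01. The 18 markers of colon epithelium, 14 of them tested, summed to 1347 to 1676 CPM. EPCAM, an epithelial adhesion molecule, was at 99.8 to 112 CPM. The 20 genes of silent tissues, 14 of them tested, summed to 176 to 186 CPM. Sums over a list were scaled over all 28159 windows rather than the tested ones. Mitochondrial windows took 0.0270% of the counts of the DMSO library with peptide against 0.00948% to 0.0132% in the other 3. Background DNA without immunoprecipitation (input) was sequenced for each condition in 2 libraries, with 161719 to 359276 counts.

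Few start sites differed between peptide and no peptide, and those that did rose by 1.55 to 2.53 times or fell to 0.528 to 0.632 of their level. Of 21536 tested windows, 11 were higher with the peptide (0.0511%) and 6 were lower (0.0279%), 0.0789% in all, by edgeR's quasi-likelihood test with drug as a term and a Benjamini-Hochberg adjusted p under 0.05. The 11 comprised the transcription factor genes EGR1, ATF3 and MZF1, the amino acid transporter gene SLC38A2, the histone genes HIST1H1C and HIST1H3A, the noncoding RNA genes OLMALINC and MIR612, and 3 windows of mitochondrial sequence. The 6 lower were CDH1, ID3, VARS2, GPSM1, KIFC2 and SLC25A29. In the same fit Nutlin3a gave 52 windows higher (0.241%) and 8 lower (0.0371%). At an unadjusted p under 0.05 the peptide had 669 windows higher (3.11%) and 645 lower (2.99%), where 1077 in all fall under that value by chance. In the 8 inputs, 0 of 14573 windows passed for the peptide by edgeR (0%), with 493 at an unadjusted p under 0.05 (3.38%).

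**Figure D1:**
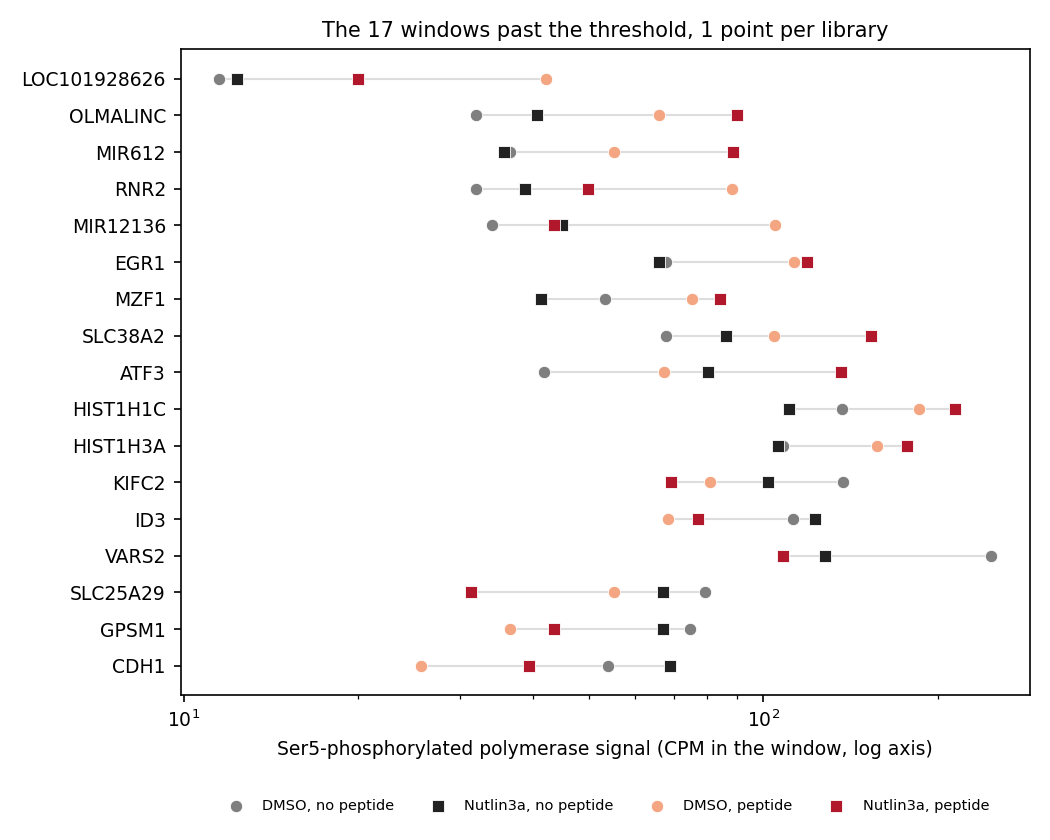
Level of Ser5-phosphorylated polymerase (CPM, log axis) in each of the 4 replicate 2 libraries at the 17 windows past the threshold, ordered by fitted change; grey line, range. The 2 peptide libraries lie above both others at 9 of the 11 windows that were higher and below both others at all 6 that were lower. They overlap at ATF3 and MIR12136. The windows were chosen by the test on these same libraries, so their separation is no support for the test. Over all windows the shares are 17.7% above and 17.3% below.

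The promoters of 5 windows that were higher are printed to show the sequence at which the polymerase was counted, each the 250 bases before the RefSeq start (hg38, GRCh38.p14, 5′ to 3′ on the gene's strand). Capitals mark CArG boxes, the sites of serum response factor, in EGR1, and CCAAT in the histone genes and OLMALINC. They also mark TATAAA in HIST1H3A, and GGGCGG or its reverse complement in SLC38A2.
EGR1, chr5:138465229-138465478, plus strand: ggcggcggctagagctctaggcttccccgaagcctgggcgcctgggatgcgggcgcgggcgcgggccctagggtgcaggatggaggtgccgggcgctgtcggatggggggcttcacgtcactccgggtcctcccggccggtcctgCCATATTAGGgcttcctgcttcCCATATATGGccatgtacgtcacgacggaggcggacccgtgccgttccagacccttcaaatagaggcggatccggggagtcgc
HIST1H3A, chr6:26020201-26020450, plus strand: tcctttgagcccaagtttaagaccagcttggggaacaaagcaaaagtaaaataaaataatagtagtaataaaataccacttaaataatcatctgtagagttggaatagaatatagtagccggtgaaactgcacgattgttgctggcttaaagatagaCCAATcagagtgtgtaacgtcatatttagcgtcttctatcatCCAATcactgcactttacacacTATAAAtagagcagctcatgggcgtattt
HIST1H1C, chr6:26056471-26056720, minus strand: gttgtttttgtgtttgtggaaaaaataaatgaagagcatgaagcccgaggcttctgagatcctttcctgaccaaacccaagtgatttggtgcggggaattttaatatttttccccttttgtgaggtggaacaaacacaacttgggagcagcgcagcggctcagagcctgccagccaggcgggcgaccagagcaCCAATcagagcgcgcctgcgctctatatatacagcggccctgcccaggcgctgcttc
SLC38A2, chr12:46372774-46373023, minus strand: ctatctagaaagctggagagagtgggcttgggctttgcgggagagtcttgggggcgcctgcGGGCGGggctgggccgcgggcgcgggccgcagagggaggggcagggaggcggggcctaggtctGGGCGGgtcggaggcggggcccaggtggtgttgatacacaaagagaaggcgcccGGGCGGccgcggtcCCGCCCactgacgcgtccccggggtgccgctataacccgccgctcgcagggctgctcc
OLMALINC, chr10:100373326-100373575, plus strand: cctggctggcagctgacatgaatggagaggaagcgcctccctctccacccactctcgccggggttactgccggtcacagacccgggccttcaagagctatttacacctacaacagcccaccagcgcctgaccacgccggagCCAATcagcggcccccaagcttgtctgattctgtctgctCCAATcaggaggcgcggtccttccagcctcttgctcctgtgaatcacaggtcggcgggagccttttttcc

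Both strands were searched in these 250 bases. A CArG box lay in 0.935% of the 14433 promoters of tested genes whose start was inside the window, CCAAT in 33.4%, TATAAA in 5.84% and GGGCGG in 65.3%. Among the 7 promoters of windows that were higher, 4 held CCAAT (HIST1H1C, HIST1H3A, OLMALINC and MZF1) and 1 held a CArG box. The letters TGACGTCA (2.58% of promoters), TGACTCA (2.63%) and CACGTG (8.48%) were in none of the 7. Of the 3 lower promoters, 2 held GGGCGG and 1 held CCAAT. A CArG box can contain the letters CCAAT or TATAAA, and no other of these motifs contains another. A match of letters is a description only.

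EGR1, an immediate early zinc finger transcription factor (chr5:138465179-138466178, protein coding, with its RefSeq start inside the window), stood at 68.0 CPM under DMSO and 65.9 under Nutlin3a without peptide. With peptide it stood at 113 and 119 CPM. The peptide libraries were above both others by a similar amount under each drug. The fitted log2 change was 0.79 ± 0.16 (SE, n = 2 libraries per group; edgeR adjusted p = 0.0070), a 1.73-fold rise. ATF3, a bZIP factor induced by many stresses and also a p53 target (chr1:212608461-212609460), went from 41.8 to 67.3 CPM under DMSO and from 80.1 to 136 under Nutlin3a. Its groups overlap, and Nutlin3a itself raised ATF3, by 0.98 on the log2 scale (edgeR adjusted p = 8.4e-06) in these replicate 2 libraries, while replicate 1 had 74.4 CPM under DMSO and 81.3 under Nutlin3a. The peptide term was 0.73 ± 0.17 (edgeR adjusted p = 0.0328). MZF1, a zinc finger transcription factor, had 53.3 and 41.3 CPM without peptide and 75.3 and 84.3 with it, a log2 change of 0.75 ± 0.18 (edgeR adjusted p = 0.0494), the largest adjusted p of the 17. The windows of MZF1 and SLC38A2 also overlap an antisense RNA gene each, that of ID3 the noncoding RNA gene LOC124903876 and that of KIFC2 the gene TMEM276. The counts carry no stated strand, so the signal of such windows cannot be given to the named gene alone.

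SLC38A2 encodes a sodium-coupled carrier of neutral amino acids that cells induce when amino acids run short (chr12:46372474-46373473). It had 68.0 CPM under DMSO and 86.3 under Nutlin3a without peptide, and 104 and 154 CPM with it. All peptide values were above all others, with a log2 change of 0.73 ± 0.16 (edgeR adjusted p = 0.0137). SLC38A1, another carrier of the same family, was at 77.9 and 76.4 CPM without peptide and 95.8 and 96.9 with it and did not pass (log2 change 0.32 ± 0.16, edgeR adjusted p = 0.811).

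OLMALINC, a long noncoding RNA gene (chr10:100373276-100374275), had the smallest p of all windows. It stood at 31.9 and 40.7 CPM without peptide, and at 66.1 and 90.1 CPM with it, in the order DMSO, Nutlin3a. The log2 change was 1.10 ± 0.19 (edgeR adjusted p = 0.000289), a 2.15-fold rise. The ratio of its mean ChIP to mean input CPM was 0.834. ChIP and input CPM are each scaled to their own counts in the windows. Such a ratio is therefore relative to other windows and does not show that signal over input is absent. The inputs of OLMALINC averaged 48.6 CPM without peptide and 88.6 CPM with it (log2 change 0.83, edgeR adjusted p = 0.998), with single inputs from 37.3 to 137 CPM. The part of the input difference in the ChIP difference was not tested. MIR612, a microRNA gene whose window lies within the long noncoding RNA NEAT1 (chr11:65444158-65445157), had 36.6 and 35.7 CPM without peptide and 55.3 and 88.8 with it. Its log2 change was 0.97 ± 0.20 (edgeR adjusted p = 0.0070), and its ratio of ChIP to input CPM was 3.90. The window at the start of NEAT1 itself, the scaffold RNA of paraspeckles, had 374 and 393 CPM without peptide and 370.0 and 589 with it, a log2 change of 0.29 ± 0.18 that did not pass (edgeR adjusted p = 0.896).

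At CDH1, which encodes E-cadherin, the adhesion molecule of epithelial junctions (chr16:68736992-68737991), the signal was 53.8 CPM under DMSO and 69.0 under Nutlin3a without peptide. It was 25.7 and 39.4 CPM with peptide. The log2 change of −0.92 ± 0.21 (edgeR adjusted p = 0.0268) is a fall to 0.528 of the level. The ratio of ChIP to input CPM at this window was 0.715, relative to other windows as above. The inputs of CDH1 averaged 82.2 CPM without peptide and 49.3 with it (log2 change −0.74, edgeR adjusted p = 0.998). ID3 encodes a helix-loop-helix protein that keeps partner factors off DNA (chr1:23559202-23560201). It had 112 and 123 CPM without peptide and 68.4 and 77.0 with it, nearly the same ratio under both drugs (log2 −0.71 and −0.66), with a fitted change of −0.69 ± 0.16 (edgeR adjusted p = 0.0324). Its relative ID1, a gene chosen after its values were seen, had 328 and 285 CPM without peptide and 206 in both peptide libraries. That is a log2 change of −0.57 ± 0.16 that did not pass (edgeR adjusted p = 0.190), and ID2 was at −0.04 ± 0.15.

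The window of VARS2, the mitochondrial valine tRNA ligase (chr6:30913908-30914907), also holds part of GTF2H4, which encodes a TFIIH subunit. It stood at 247 CPM in the DMSO library without peptide and at 108 to 128 CPM in the other 3 libraries, with log2 ratios of −1.18 under DMSO and −0.23 under Nutlin3a and a fitted change of −0.73 ± 0.15. GPSM1, a G protein signalling modulator, was at 74.8 and 67.2 CPM without peptide and 36.5 and 43.5 with it. KIFC2, a kinesin gene, was at 137 and 102 CPM without peptide and 81.0 and 69.3 with it. SLC25A29, a mitochondrial carrier of basic amino acids, was at 79.5 and 67.2 CPM without peptide and 55.3 and 31.3 with it. These last 3 had log2 changes of −0.82 ± 0.19, −0.66 ± 0.16 and −0.79 ± 0.19. The inputs of GPSM1 averaged 58.3 CPM without peptide and 19.7 with it (log2 change −1.39, edgeR adjusted p = 0.998). Those of ID3, VARS2 and KIFC2 were higher with the peptide (log2 0.55, 0.67 and 0.16), and those of SLC25A29 were level (0.002). The ratio of ChIP to input CPM at SLC25A29 was 0.995. The part of the input differences in these falls and in that of CDH1 was not tested. Among the windows that were higher, the input log2 changes were 0.24 at EGR1, 0.28 at ATF3 and 0.58 at MZF1. They were −0.88 at SLC38A2, 0.48 at HIST1H1C and 0.11 at HIST1H3A, each with an edgeR adjusted p of 0.998. MIR612 was not tested in the inputs. The part of these input differences in the rises was not tested either.

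The 3 windows of mitochondrial sequence were highest in the DMSO library with peptide. RNR2, the large ribosomal RNA of the mitochondrion, had 88.4 CPM in that library and 31.9 to 49.8 CPM in the other 3 (log2 change 0.94 ± 0.20). MIR12136, annotated on the mitochondrial genome over COX1 and COX2, had 105 CPM there and 34.0 to 45.0 CPM in the others, with log2 ratios of 1.60 under DMSO and −0.05 under Nutlin3a. The chromosome 1 window of LOC101928626, which holds the mitochondrial pseudogenes MTND1P23 and MTND2P28, had 42.2 CPM there against 11.5 to 19.9 CPM. At these 3 windows the ChIP level was 0.0199 to 0.0368 of input, polymerase II does not transcribe the mitochondrial genome, and near-identical copies make their counts uncertain. The mitochondrial share of counts given above comes from the 3 windows of the mitochondrial genome, RNR2 and MIR12136 among them. It restates their counts and is no separate measure. In the replicate 1 libraries without peptide the share was 0.0295% under DMSO and 0.122% under Nutlin3a. The cause of the higher counts was not tested.

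Just outside the threshold lay KLHL17, at −0.80 ± 0.20 (edgeR adjusted p = 0.0546), the histone gene HIST1H2AI at 0.62 ± 0.15 (0.0566) and HGC6.3 at 1.20 ± 0.30 (0.0566). Just inside lay MZF1 (0.0494) and HIST1H3A (0.0461). The replicate 1 libraries, which had no peptide, did not all lie on the no-peptide side. Of the 11 windows that were higher, only MZF1 had both replicate 1 libraries below both peptide libraries. Of the 6 that were lower, 2 (ID3 and CDH1) had both replicate 1 libraries above both peptide libraries. At EGR1, for example, replicate 1 had 132 CPM under DMSO and 101 under Nutlin3a, and at OLMALINC 81.6 and 97.2. A fit of all 6 ChIP libraries with the replicate number as a block left OLMALINC past the threshold (edgeR adjusted p = 0.00993) and no other window.

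The DMSO pair and the Nutlin3a pair share no library, so each gives its own peptide ratio. Over all 21536 windows the log2 ratios of the pairs had a Pearson correlation of −0.0235, over the 10768 windows above the median abundance 0.0994, and over the 2154 most abundant windows 0.184. These are descriptions across windows that share libraries within a pair, and windows are not replicates. The ratios had the same sign in 51.1%, 52.7% and 54.6% of those windows. Above the median abundance, the SD of the log2 ratio was 0.263 in the DMSO pair and 0.302 in the Nutlin3a pair, against 0.335 between DMSO replicates 2 and 1 and 0.432 between Nutlin3a replicates 2 and 1. Both peptide libraries were above both others at 3820 windows (17.7%) and below both at 3734 (17.3%). A fit of the 6 libraries with a drug by peptide term and no replicate block found 0 of 25901 windows by edgeR (0%), with 273 at an unadjusted p under 0.05 (1.05%). Differences between the replicates enter the spread of that fit, so its 0 cannot exclude a difference between the pairs.

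**Figure D2:**
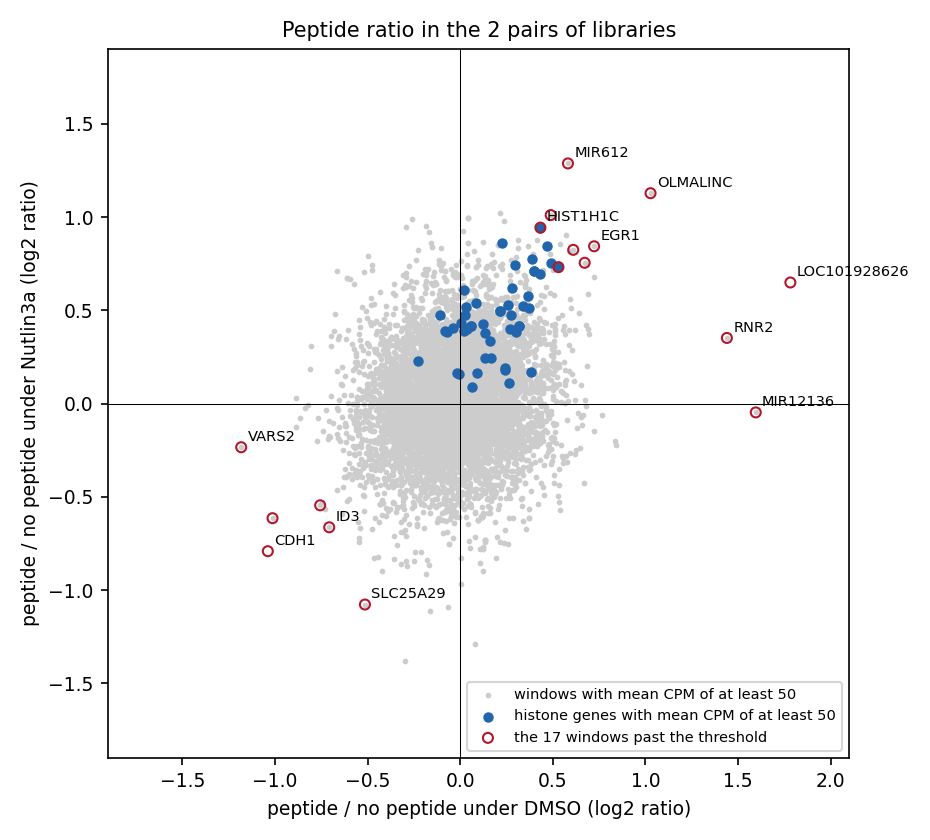
Log2 ratio of peptide to no peptide under DMSO (horizontal) and under Nutlin3a (vertical), 1 point per window with a mean of at least 50 CPM; blue, histone genes; red circles, the 17 windows past the threshold, of which 11 are named. The cloud of all windows is centred on 0, and 42 of the 49 histone genes drawn (45 distinct windows) are above 0 under DMSO and 49 under Nutlin3a.

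Among gene lists, the replication-dependent histone genes had the highest median of those with at least 10 windows tested. These genes lie in clusters and are transcribed mainly in S phase, and their RNAs lack poly(A) tails. In bulk chromatin a changed share of cells in a phase and a changed signal per cell cannot be told apart. HIST1H1C, the linker histone H1.2, passed the test, with 137 CPM under DMSO and 111 under Nutlin3a without peptide and 185 and 214 with it (log2 change 0.69 ± 0.15, edgeR adjusted p = 0.0222). HIST1H3A, a core histone H3 gene, also passed, with 108 and 106 CPM without peptide and 157 and 177 with it (0.64 ± 0.15, edgeR adjusted p = 0.0461). Both peptide libraries were above both others at each. HIST1H2AI, an H2A gene whose window overlaps that of HIST1H2BL, had 141 and 105 CPM without peptide and 198 and 177 with it.

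Over the windows of the 72 tested histone genes, 2 rose and 0 fell, beside 0.0511% and 0.0279% of all windows. The median fitted change was 0.25, with 60 of 72 above 0, against a median of 0.00 and 10883 of 21536 over all windows. At an unadjusted p under 0.05, 22 were higher and 2 lower (30.6% and 2.78%, beside the 3.11% and 2.99% of all windows). The median ratio was 0.16 in the DMSO pair and 0.40 in the Nutlin3a pair, and in the inputs 0.03. By class, the medians were 0.45 over 3 linker histone genes, 0.26 over 18 H2A, 0.21 over 20 H2B, 0.32 over 16 H3 and 0.26 over 15 H4 genes. The list divided by level, at a value chosen after the data were seen: the windows of the 49 genes with a mean of at least 50 CPM all had fitted values above 0 (0.02 to 0.69, median 0.28), and the 23 below it had 11 above 0 and a median of −0.01. Over all 7237 windows of at least 50 CPM, 49.1% were above 0. The 49 genes have 45 distinct windows, since 4 pairs of genes share an exact window and hold the same values; the 45 are all above 0, with a median of 0.28, and over all 72 genes 56 of 68 distinct windows are above 0. Of the 49, 29 overlap another histone window in whole or part, and the 20 that do not had a median of 0.26. Histone genes are near-identical copies, so reads could be split among them and single members are uncertain.

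The levels of the histone genes were not lower in replicate 1. Over the 49 genes the median level without peptide was 141 CPM under DMSO and 120.2 under Nutlin3a in replicate 2. It was 159 and 178 CPM in the peptide libraries, and 260 and 240.3 CPM in the replicate 1 libraries without peptide. The peptide libraries thus lay between the no-peptide libraries of the same replicate and those of the other. In the fit of 6 libraries without a replicate block the list's median was −0.13. The 21 other tested windows between the first and the last HIST1 window on chromosome 6 had a median of 0.11, with 14 above 0.

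Cell cycle genes bound by DREAM, the complex through which p53 and p21 repress genes of S phase and mitosis, had 33 of 40 fitted values above 0 and a median of 0.19, and none passed the test. At an unadjusted p under 0.05, 9 were higher and 1 lower (22.5% and 2.50%, beside 3.11% and 2.99% of all windows). CCNB2, a mitotic cyclin, had 40.3 and 37.6 CPM without peptide and 61.0 and 67.0 with it (0.72 ± 0.20, edgeR adjusted p = 0.179). AURKB, a mitotic kinase, had 45.5 and 57.3 CPM without peptide and 74.1 and 86.5 with it (0.65 ± 0.18, edgeR adjusted p = 0.179). Among the members below 0, E2F1, a regulator of S phase entry, was at −0.50, and the replication licensing genes CDC6 and CDT1 were at −0.13 and −0.18. The median ratio was 0.08 in the DMSO pair and 0.32 in the Nutlin3a pair.

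Of 34 immediate early genes, which respond to growth factors and stress within minutes, EGR1 and ATF3 rose and none fell, beside 0.0511% of all windows that rose. The list's median was 0.09, with 25 above 0 (73.5%, beside 50.5% of all windows). At an unadjusted p under 0.05, 5 were higher (14.7%, beside 3.11%) and 0 lower (beside 2.99%). Besides those 2 these were NR4A2, an orphan nuclear receptor (0.62 ± 0.19), BTG1, an antiproliferative factor (0.45), and JUN, an AP-1 subunit (0.34 ± 0.16). FOS, the partner of JUN, had 125 and 107 CPM without peptide and 129 and 140.4 with it (0.21 ± 0.15). Both peptide libraries were above both others at 16 of the 34 and below both at 2, beside 17.7% and 17.3% of all windows. At the abundant members IER3 and MYC the libraries overlapped. IER3 had 649 and 486 CPM without peptide and 507 and 589 with it (−0.04 ± 0.19). MYC, the growth regulator, had 597 and 401 without peptide and 447 and 406 with it (−0.20 ± 0.18).

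The 29 tested genes of ATF4 and endoplasmic reticulum stress had a median of 0.14, with 25 above 0, none past the test, and 6 higher (20.7%, beside 3.11% of all windows) and 0 lower (beside 2.99%) at an unadjusted p under 0.05. HSPA5, the chaperone BiP, had 112 CPM in both libraries without peptide and 139 and 184 with it (0.52 ± 0.15, edgeR adjusted p = 0.254). STC2, a secreted glycoprotein induced by that stress, had 65.9 and 58.5 CPM without peptide and 82.1 and 105 with it (0.58 ± 0.17, edgeR adjusted p = 0.222). DDIT3, which encodes the stress factor CHOP, was at 0.40 ± 0.17. The 19 genes of NRF2 and metal response had a median of 0.12 with 15 above 0. At an unadjusted p under 0.05, 3 were higher (15.8%, beside 3.11% of all windows) and 0 lower (beside 2.99%). The 3 included HMOX1, heme oxygenase (0.60 ± 0.22). Heat shock genes had a median of −0.02 over 20, and HSPA1A was at −0.18 ± 0.18.

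**Figure D3:**
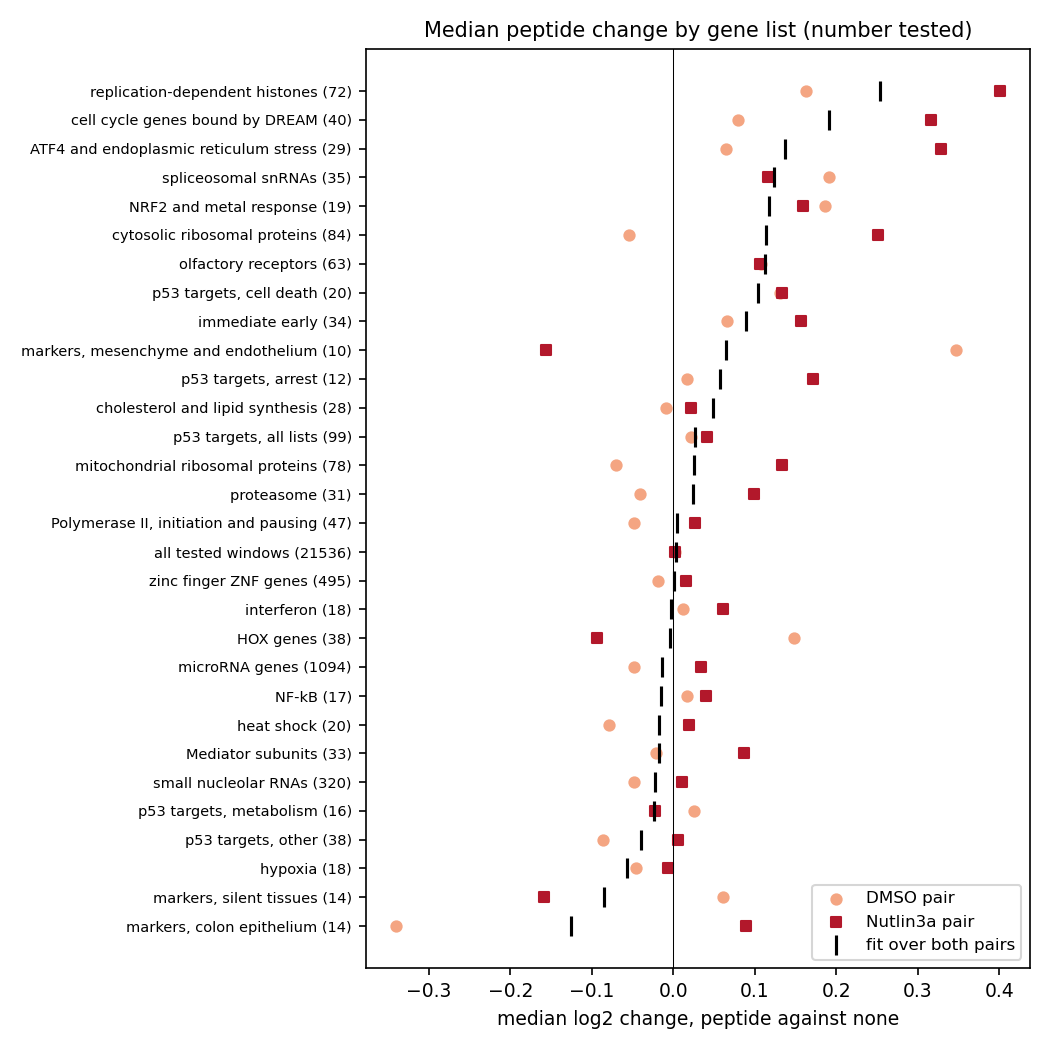
Median log2 change of peptide against none for each gene list with at least 10 tested windows (number tested in brackets), in the DMSO pair (circles), the Nutlin3a pair (squares) and the fit over both (bars). Histone genes are highest at 0.25 and colon epithelium markers lowest at −0.13; all 21536 windows are at 0.00.

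The 99 tested p53 targets had a median of 0.03, with 56 above 0, beside 0.00 and 50.5% above 0 for all windows. ATF3 alone rose and none fell, beside 0.0511% and 0.0279% of all windows. At an unadjusted p under 0.05, 8 were higher and 3 lower (8.08% and 3.03%, beside 3.11% and 2.99% of all windows). CDKN1A, which encodes p21, had 127 and 117 CPM under DMSO without and with peptide, and 367 and 468 CPM under Nutlin3a. The Nutlin3a libraries were high and the DMSO libraries low with or without peptide, and the peptide term was 0.15 ± 0.17 (95% interval −0.18 to 0.48). Its window overlaps that of DINOL, so their reads are shared. MDM2, the ubiquitin ligase that holds p53 down, had 101 and 124 CPM under DMSO and 198 and 217 under Nutlin3a (peptide term 0.20 ± 0.15, interval −0.10 to 0.50). TP53INP1, a target in autophagy and cell death, had 49.1 and 58.1 CPM under DMSO and 153 and 142 under Nutlin3a (0.03 ± 0.16, interval −0.29 to 0.34).

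SESN1, a stress-induced restraint on mTORC1, had 18.8 and 30.8 CPM under DMSO without and with peptide, and 88.1 and 87.4 under Nutlin3a. FAS, a death receptor, had 28.2 and 35.9 CPM under DMSO and 96.1 and 95.6 under Nutlin3a. At these members the peptide library was the higher of the DMSO pair, while the Nutlin3a libraries were level. BBC3, which encodes the death factor PUMA, had 22.0 and 30.8 CPM under DMSO and 65.3 and 81.1 under Nutlin3a, a term of 0.37 ± 0.21. GDF15, a stress cytokine, had 48.6 and 61.6 CPM under DMSO and 124 and 159 under Nutlin3a (0.36 ± 0.16, edgeR adjusted p = 0.776). BTG2, an antiproliferative gene, had 92.0 and 88.9 CPM under DMSO and 204 and 210 under Nutlin3a, a term of 0.00 ± 0.15.

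By role, the medians were 0.17 over 6 feedback genes, 0.06 over 12 arrest genes, 0.10 over 20 cell death genes, 0.14 over 7 DNA repair genes, −0.02 over 16 metabolic genes and −0.04 over 38 others. At an unadjusted p under 0.05, TNFRSF10B, a death receptor, was at 0.43 ± 0.17 and RCHY1, a ligase for p53, at 0.49 ± 0.18, while COP1, another such ligase, was at −0.46 ± 0.17 and STEAP3, a metal reductase, at −0.41 ± 0.16. None of these 4 passed the adjusted test. The change fitted at EGR1, a window picked by the test, lies outside the intervals of CDKN1A, MDM2 and TP53INP1. Those intervals average over both drugs, rest on 1 residual degree of freedom and may measure technical spread only. They therefore cannot exclude a change of any size.

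**Figure D4:**
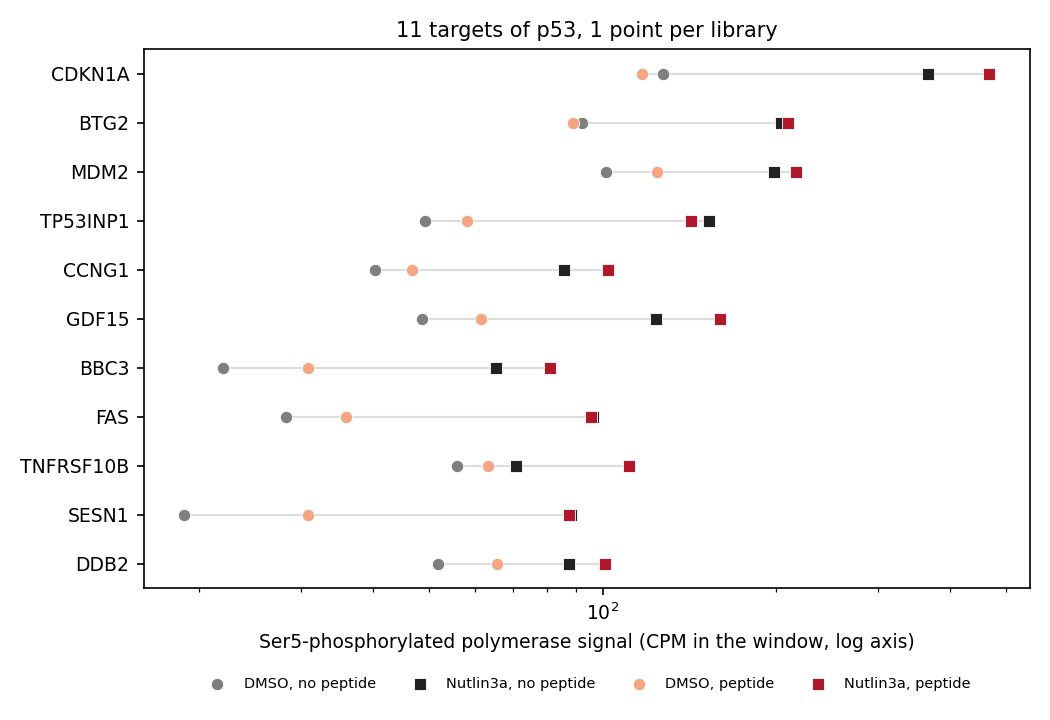
Level of Ser5-phosphorylated polymerase (CPM, log axis) at 11 p53 targets in each of the 4 replicate 2 libraries. At CDKN1A the Nutlin3a libraries are at 367 (no peptide) and 468 CPM (peptide) and the DMSO libraries at 127 and 117.

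The 33 genes of Mediator subunits had a median of −0.02, with 16 above 0 and none past the test. MED17, a head subunit, had 99.3 and 83.2 CPM without peptide and 95.2 and 98.8 with it (0.09 ± 0.16), and MED1, a subunit that many activators contact, 49.7 and 45.6 without peptide and 41.6 and 48.5 with it (−0.08 ± 0.21). MED15 was at 0.30 ± 0.20, MED23 at 0.05 ± 0.30 and MED25 at −0.05 ± 0.22. The lowest value was at MED12, of the kinase module, with 15.7 and 36.4 CPM without peptide and 17.7 and 10.4 with it (−0.86 ± 0.33, edgeR adjusted p = 0.615), with log2 ratios of 0.16 under DMSO and −1.70 under Nutlin3a. The 47 genes of polymerase II, initiation and pausing had a median of 0.00, with HEXIM1, an inhibitor of the pause-release kinase, at 0.10 ± 0.18. The reference genes ACTB and GAPDH had 320.4 to 336 and 347 to 410.4 CPM, with terms of 0.04 ± 0.17 and 0.12 ± 0.17.

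The cytosolic ribosomal protein genes differed between the pairs by value. Their median was 0.11 in the fit, with 65 of 84 above 0 (77.4%, beside 50.5% of all windows), none past the test, and 7 higher (8.33%, beside 3.11%) and 0 lower (beside 2.99%) at an unadjusted p under 0.05. In the DMSO pair it was −0.05 and in the Nutlin3a pair 0.25. RPL23A, a large subunit protein, had 107 and 91.2 CPM without peptide and 148 and 123 with it (0.45 ± 0.15), in a window shared with a small nucleolar RNA gene. The 14 colon epithelium markers had a median of −0.13, with medians of −0.34 in the DMSO pair and 0.09 in the Nutlin3a pair. CDH1 was lower and none higher, beside 0.0279% and 0.0511% of all windows. KRT19, an epithelial keratin, had 360.2 and 271 CPM without peptide and 268 and 275 with it. The 6 tested of 13 blood cell markers had a median of 0.34, with 5 above 0 and none past the test. At an unadjusted p under 0.05, 2 were higher (33.3%, beside 3.11% of all windows) and 0 lower (beside 2.99%). All 13 summed to 237 CPM under DMSO and 180.3 under Nutlin3a without peptide, and to 252 and 298 with it. Their sum was higher with the peptide in both pairs, as were those of the histone and DREAM lists. The 7 that were not tested had 0 to 22 counts in single libraries. The part of these markers in the lists above was not tested.

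The ratio within the Nutlin3a pair moved with promoter GC content. Of 16248 tested protein coding genes, 13041 (80.3%) had a RefSeq promoter sequence. They were ranked by GC content in 5 groups. From the lowest group (28.3% to 57.3%) to the highest (73.7% to 94.0%), the median log2 ratio went from 0.10 to −0.15 in the Nutlin3a pair, from 0.01 to 0.00 in the DMSO pair, and from 0.06 to −0.07 in the fit. Across genes, the Spearman correlation with GC content was −0.239 in the Nutlin3a pair, 0.0150 in the DMSO pair and −0.156 in the fit. Histone promoters had a median GC content of 42.8% and those of the DREAM list 62.3%, against 65.0% over all windows with a promoter. With offsets that take out GC content in each library, the medians were 0.23 for histones, 0.16 for the DREAM list, 0.15 for ATF4 and endoplasmic reticulum stress and 0.07 for cytosolic ribosomal proteins. With those offsets EGR1 and SLC38A2 rose and ID3 and GPSM1 fell, among 13041 windows, and without the offsets the same windows left EGR1 alone past the threshold.

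**Figure D5:**
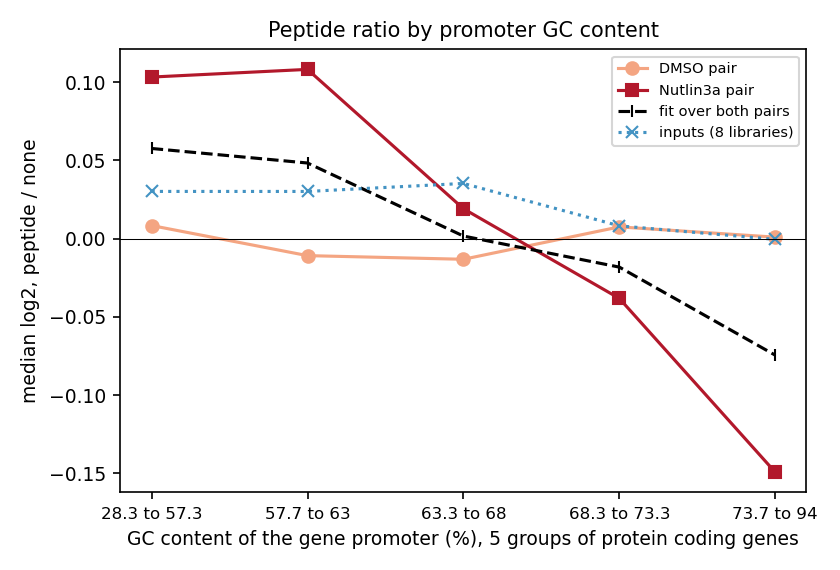
Median log2 ratio of peptide to no peptide for protein coding genes in 5 groups of promoter GC content (%), in the DMSO pair (circles), the Nutlin3a pair (squares), the fit over both (dashed) and the 8 inputs (dotted). The Nutlin3a pair goes from 0.10 to −0.15, and the DMSO pair lies between −0.01 and 0.01.

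The calls rest on 1 residual degree of freedom. In this fit edgeR took every window's spread from the trend with abundance (biological coefficient of variation 10.4%), and an exact test of 2 libraries against 2 cannot give a two-sided p below 0.333. DESeq2 and limma-voom called 0 windows (26 higher and 15 lower, and 560 and 588, at an unadjusted p under 0.05), scaling by total counts left OLMALINC alone, and the authors' scaling constants left 0 past the threshold.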

How the data were processed

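Ser5-phosphorylated polymerase II was measured by ChIP-seq in HCT116 cells, and groups came from sample titles. The authors deposited raw read counts in 1 window of 1000 bp per gene, and, per the file headers, a scaled signal, which equals the count times 1 constant per library. The build was hg38, per the submitters' processing notes; aligner, counter and filters are not given in the sources used here. Of 28159 windows, 28087 matched a RefSeq gene, and 6188 overlap another window and share reads. Windows run 300 bases before the start of most plus strand genes (7583 of 9734) but 700 before that of most minus strand genes (7657 of 9302).

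Counts of the 4 replicate 2 ChIP libraries (1634929 to 2240951) entered edgeR 4.0.16 under R 4.3.3 (TMM, filterByExpr with minimum count 10, quasi-likelihood test, drug and peptide as terms, Benjamini-Hochberg over 21536 windows, threshold 0.05). Pair ratios used a prior count of 2. Errors are standard errors of the fit. The fit had infinite prior degrees of freedom. On simulated data over 20933 windows, the test recovered 35.8% of 67 windows given a 1.5-fold change, 88.1% of 67 given a 2-fold and 100% of 66 given a 4-fold change, with 7 false calls. Changes were planted only in windows above the median count. All windows had the same dispersion and no drug effect. Recovery at less abundant windows, or with a pool or library effect, was not simulated. Named genes were those past the threshold, a fixed list of p53 target, Mediator, immediate early and reference genes, and, per gene list, the 3 with the smallest p and the extremes; HIST1H2BL, ID1, ID2, NEAT1, SLC38A1, KRT19 and other members were added after their values were seen. A few of the genes so chosen are not reported here. The libraries, gene lists and tests were chosen with earlier results of these data known. Alternatives used DESeq2 1.42.0, limma 3.58.1, other scalings, filters and library sets. GC offsets and the restriction to protein coding genes with a promoter were chosen after seeing the data.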

Additional observations from a re-analysis of the deposited data

Results flagged for a closer look

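The DMSO pair and the Nutlin3a pair, 1 library against 1 in each, had peptide ratios of opposite sign at the medians of 17 gene lists and, among the 17 windows past the threshold, at MIR12136 alone. Over all 21536 tested windows the sign was the same in 51.1%. The differences were not tested for the lists. The drug by peptide term, in the fit of 6 libraries without a replicate block, called 0 of 25901 windows by edgeR, with 273 at an unadjusted p under 0.05. That fit cannot exclude a difference between the pairs, since differences between the replicates enter its spread. MIR12136, on the mitochondrial genome, had a Nutlin3a ratio below its DMSO ratio by a log2 difference of −1.64, and the 3 windows of the mitochondrial genome had a difference of medians of −1.49. Differences of medians below are the Nutlin3a pair minus the DMSO pair, in log2 units. They were above 0 for colon epithelium markers (0.428), cytosolic ribosomal proteins (0.305), mitochondrial ribosomal proteins (0.203), proteasome genes (0.14), Mediator subunits (0.107), heat shock genes (0.0993), other p53 targets (0.0916), microRNA genes (0.0823), genes of polymerase II initiation and pausing (0.0748), small nucleolar RNAs (0.059), zinc finger ZNF genes (0.0341) and cholesterol and lipid synthesis genes (0.0305). They were below 0 for mesenchyme and endothelium markers (−0.503), HOX genes (−0.242), silent tissue genes (−0.22) and metabolic p53 targets (−0.0483). The medians of all tested windows were 0.00 in both pairs.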

How the results depend on the processing

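Of the 17 windows called, 15 were called with DESeq2's size factors, and edgeR without the legacy setting gave 11 higher and 7 lower. Total counts gave 1 higher and 0 lower, and 48 windows for the drug. The authors' constants gave 0 and 0 for the peptide, 36 for the drug and a p53 median of 0.093, with the median of all windows at 0.06. Without a filter there were 7 and 1 and a p53 median of 0.046; a mean count of at least 50 gave 15 and 12. The 1931 windows whose ChIP level reached 2 times input gave 10 and 5, 23 for the drug and a p53 median of 0.0057, where the fit reported gave 0.03. DESeq2 gave 0 and 0, 11 for the drug and a p53 median of 0.045; limma-voom gave 0 and 0, and 29 for the drug. Windows without overlaps gave 7 and 3, and 29 for the drug. Offsets for GC content, an alternative chosen after seeing the data, gave 2 and 2; the same protein coding windows without offsets gave 1 and 0, and 34 for the drug. The cause of these shifts was not tested.

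All 6 ChIP libraries with the replicate block gave 1 higher (OLMALINC) and 0 lower; with no replicate block they gave 0 and 0, and 10 for the drug. The replicate number comes from the titles, and what it stands for was not tested. Deviations of replicate 2 from 1 under DMSO and under Nutlin3a share no library. They had a correlation of 0.281 across 21536 windows, beside −0.0235 for the peptide ratios of the 2 pairs. With the block and leaving out each replicate 2 library in turn, 0 to 4 were higher, 0 to 1 lower and 28, 30, 54 and 55 called for the drug (without DMSO, Nutlin3a, and each of their peptide libraries), with p53 medians of −0.028, 0.115, 0.134 and −0.048 in that order; the 4 higher came without the Nutlin3a peptide library and were all mitochondrial in sequence (LOC101928626, MIR12136, RNR1 and RNR2). The 4-library fit leaves no residual degree of freedom without a library, and its p53 medians were 0.046, 0.024, 0.047 and 0.017. Signs turned in 8 cases, all at 4 windows. Without the block, RNR2 was at −0.57, MIR12136 at −0.76, LOC101928626 at −0.24 and HIST1H3A at −0.13. With the block and without the DMSO peptide library, RNR2 was at −0.25 and MIR12136 at −0.50. In the 4-library fit MIR12136 was at −0.045 without the DMSO library and −0.044 without its peptide counterpart. In the inputs, 1 window was called without replicate 1 and 0 otherwise.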

Other observations

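Interferon genes (18 tested) had a median of −0.0023 with 9 above 0, NF-kB genes (17) −0.01 with 8 above 0, hypoxia genes (18) −0.06 with 7 above 0, cholesterol and lipid synthesis genes (28) 0.05 with 19 above 0, and proteasome genes (31) 0.02 with 17 above 0; none of these 5 lists had a member past the threshold. Zinc finger ZNF genes (495 tested) had a median of 0.00 and HOX genes (38) −0.0043. Spliceosomal small nuclear RNA genes make the RNAs of the splicing machinery. Their list also holds RNU7-1, whose RNA acts in the processing of histone RNAs and not in splicing. The list had a median of 0.12 over 35, with median ratios of 0.19 in the DMSO pair and 0.12 in the Nutlin3a pair. At an unadjusted p under 0.05, 6 were higher and 1 lower (17.1% and 2.86%, beside 3.11% and 2.99% of all windows). Both peptide libraries were above both others at 18 of the 35 and below at 0, against 17.7% and 17.3% of all windows, and these genes have near-identical copies that make single members uncertain. The window of RNU6-2, among the 6 higher, overlaps those of RNU6-1, RNU6-7, RNU6-8, RNU6-9 and TMEM259. That of RNU7-1, also among the 6, overlaps that of C12orf57. Overlapping windows share reads and were not merged here, so the 6 and the 18 may hold 1 locus several times.

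CCNE1, which encodes the cyclin E that drives entry to S phase, had 45.5 CPM under DMSO and 32.0 under Nutlin3a without peptide, and 18.8 and 18.1 with it, a log2 change of −1.05 ± 0.27 that did not pass (edgeR adjusted p = 0.0879). KIF18B, a mitotic kinesin gene, had 71.1 and 59.8 CPM without peptide and 99.8 and 105 with it (0.65 ± 0.17, edgeR adjusted p = 0.0879). Both were chosen after their values were seen.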
